A study of Mus musculus with 12 samples.

Results

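Transcripts of 7 interferon regulatory factors (Irf1, Irf2, Irf3, Irf5, Irf7, Irf8 and Irf9) and 2 signal transducers and activators of transcription (Stat2 and Stat3) were followed in the established mouse microglial cell line BV2. The members were taken by gene symbol alone, and all 9 were found among the 24934 genes of the count table and the 24728 genes of the FPKM table. All 9 also passed the filter on low counts, which left 13249 genes for testing. RNA was sequenced from 12 libraries in 3 groups of 4. The Control label names no treatment. The OGD group was deprived of oxygen and glucose and then re-oxygenated, which imitates stroke in culture. Acacetin, a flavone from plants, was given at 10 µM to the last group, and the design text places this after the deprivation and re-oxygenation, although the treatment label of the group does not itself name OGD. The labels name no genotype and no time points, and leave unsaid whether libraries of the same group stem from separate cultures. The p-values therefore measure only the spread between these samples, which may be technical.

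The IRF proteins bind interferon-stimulated response elements (ISRE) in DNA. IRF3, IRF5 and IRF7 wait in the cytoplasm until kinases downstream of nucleic acid sensors and Toll-like receptors phosphorylate them, and they then switch on type I interferon genes. Secreted interferon acts through JAK kinases on STAT proteins, and STAT2 joins IRF9 in the complex ISGF3, which drives interferon-stimulated genes. IRF1 and IRF2 compete for the same elements, the former mostly as an activator and the latter often as a repressor. IRF8 is a lineage factor that microglia and other myeloid cells need to develop, and STAT3 carries the signals of the IL-6 and IL-10 cytokine families. Most of this signalling works through phosphorylation, which RNA levels do not show.

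Library depth ran from 16427886 to 32693066 counted reads. The share of 18S ribosomal RNA reads was 13.1% in OGD 2, 21.3% in OGD 3 and at most 1.86% elsewhere. Libraries also differed in how expression followed gene length. The slope of log2 expression on log2 length was lowest in Acacetin 1 (-0.176) and highest in Acacetin 3 (0.256), and results that rest on these libraries are also given without them. All 8 microglial and macrophage markers were in the table, with a summed level of 3280 to 4060 CPM (read counts brought to a common library size by TMM scaling) in Control, 2930 to 4230 in OGD and 2480 to 3820 in Acacetin. Markers of resting microglia were weaker and summed to 168 to 216 CPM in Control, 126 to 196 in OGD and 105 to 129 in Acacetin, so that they moved with the groups, and their part in the results below was not tested. P2ry12 averaged 0.0467 CPM, Tmem119 5.16 CPM and Cx3cr1 3.07 CPM, which limits the line as a model of microglia in tissue. The summed markers of astrocytes, fibroblasts, endothelium and lymphocytes each stayed at or below 2.02 CPM in all libraries, and those of neurons and oligodendrocytes at or below 6.26 CPM.

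The promoter windows of RefSeq (build GRCm38.p6, 250 bases before to 50 after a start site) matched all 9 members, with 12 windows in all. Both strands were searched for 3 motifs: the ISRE core (GAAA and GAAA with 2 free bases between them), the STAT-binding GAS motif TTCNNNGAA, and a loose NF-kB motif (GGG and CC with 5 free bases between them). The ISRE core was found in 2 members and in 3.44% of all 32851 windows. The GAS motif was found in 3 members and in 8.3% of windows. The NF-kB motif was found in 8 members, all but Stat3, and in 50.79% of windows. A member counts here if any of its windows matches, so member counts and window shares are unlike units. Irf1, Irf8 and Irf9 have 2 windows each. Start 2 of Irf1 and of Irf8 and start 1 of Irf9 held no match to any motif. The 4 members with an ISRE core or a GAS match include the promoter of Irf8 and that of Irf1, whose transcripts fell and rose after deprivation, and are shown for that reason. Each stretch lies upstream of the start site and reads 5′ to 3′ on the gene's own strand, here the plus strand, with the matched bases in capitals.
Irf1, chr11:53769894-53769962: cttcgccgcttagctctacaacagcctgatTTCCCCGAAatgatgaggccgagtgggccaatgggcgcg
Irf8, chr8:120736157-120736243: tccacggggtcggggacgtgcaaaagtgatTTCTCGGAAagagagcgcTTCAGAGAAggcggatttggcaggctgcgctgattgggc
Irf2, chr8:46739495-46739559: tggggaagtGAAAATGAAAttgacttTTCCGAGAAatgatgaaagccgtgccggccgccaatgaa
Stat2, chr10:128270248-128270315: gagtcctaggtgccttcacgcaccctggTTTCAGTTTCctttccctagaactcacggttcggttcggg
Counting the base just before the start site as -1, the GAS match of Irf1 spans -90 to -82, and those of Irf8 span -171 to -163 and -153 to -145. Irf2 holds an ISRE core from -241 to -232 and a GAS match from -224 to -216. In Stat2 the ISRE core is read on the opposite strand, from -222 to -213. Irf1 also holds the NF-kB match GGGGAATCCC from -13 to -4, among 6 NF-kB matches counted over both strands in its window of start 1. Irf8 holds more of them in its window of start 1, with 9. Irf5 holds 4, Irf7 and Stat2 hold 2 each, and Irf2, Irf3 and Irf9 (start 2) hold 1 each. A match describes these letters only and shows no binding.

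**Figure D1:**
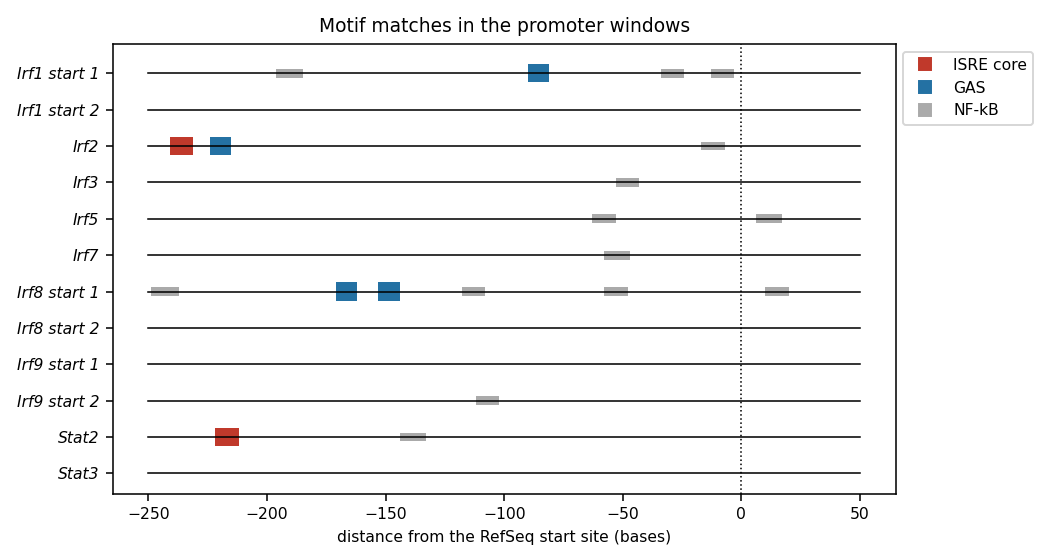
Matches to 3 motifs (red, ISRE core; blue, GAS; grey, NF-kB) in the 12 RefSeq promoter windows of the 9 genes, by distance from the start site in bases (x axis), with 1 line per window. Only Irf2 and Stat2 hold an ISRE core, and Irf8 holds 2 GAS matches in 1 of its windows.

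Levels can be compared between genes only per length, for which the deposited FPKM values (fragments scaled by gene length and depth) were used. Irf7 was the most abundant member, with a mean of 41.2 ± 11.9 FPKM (SD, n = 12 libraries), followed by Irf5 at 28.5 ± 5.24 and Irf3 at 21.0 ± 3.89 FPKM. Irf8 averaged 11.7, Irf9 5.85, Stat3 3.45, Irf1 2.92, Irf2 1.16 and Stat2 0.738 FPKM. The factors that respond to sensors therefore stood above the partners of interferon receptor signalling, and the order of the 9 group means was the same in Control, OGD and Acacetin. Not all neighbours in that order were apart. In Acacetin, Irf7 ran from 25.9 to 34.8 FPKM and Irf5 from 25.2 to 27.4, so the libraries of both overlapped, and Irf3 (19.5 to 26.9 FPKM) overlapped both. In Control, Irf7 (39.3 to 52.2 FPKM), Irf5 (28.0 to 29.0 FPKM) and Irf3 (17.5 to 25.2 FPKM) did not overlap. In FPKM all 9 members read lower in OGD 2 and OGD 3, which had the most 18S rRNA reads, than in OGD 1 and OGD 4. FPKM uses no TMM factor, and these factors ran from 0.78 in OGD 3 to 1.322 in Acacetin 3. The part of rRNA reads in the FPKM values was not tested. The conditions are compared below on the CPM scale.

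**Figure D2:**
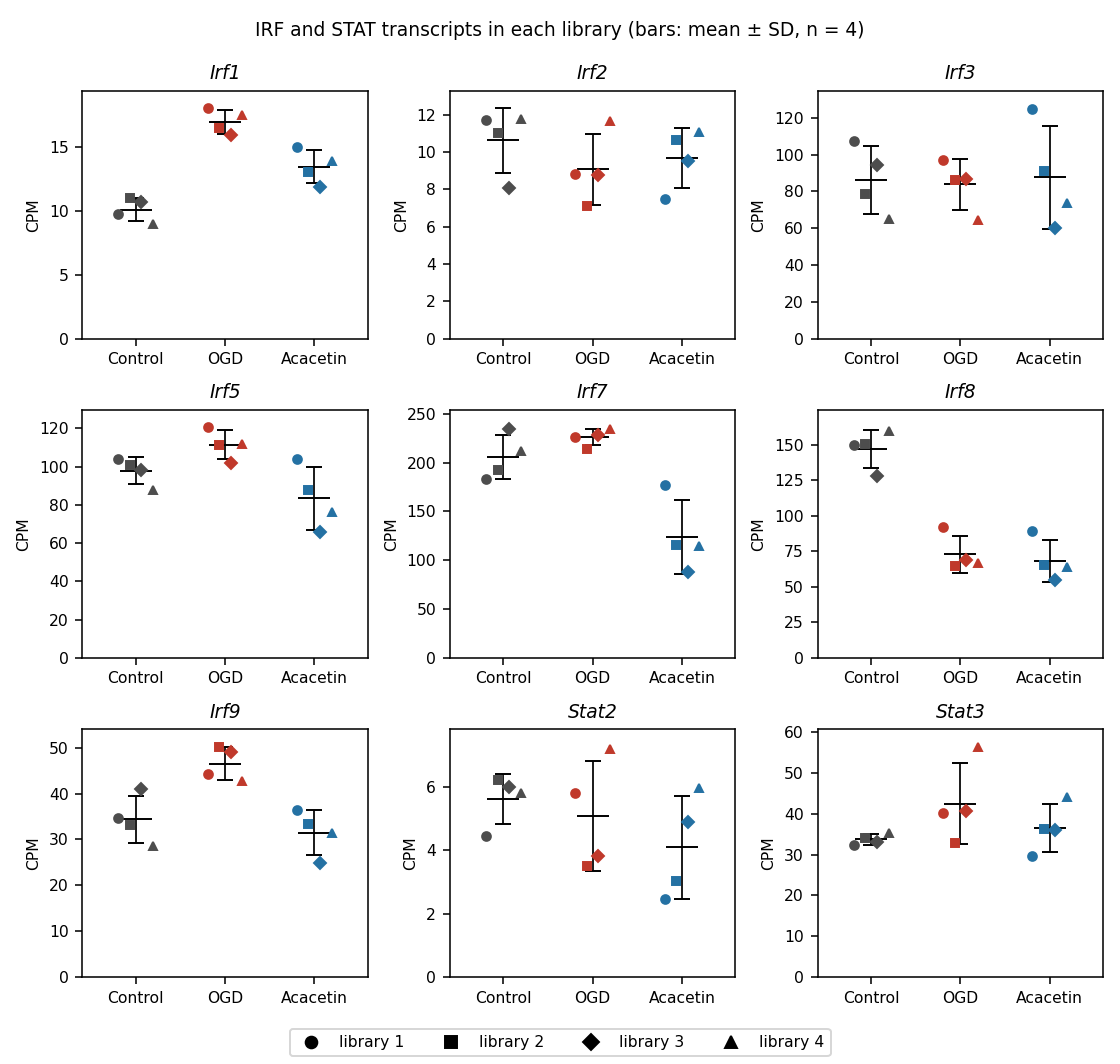
CPM (y axis, from 0) of each member in the 4 libraries of Control (grey), OGD (red) and Acacetin (blue), with horizontal bars for the mean and the SD (n = 4) and a marker shape for each library number. Irf8 in Control (127.9 to 160.0 CPM) lies above all 8 other libraries, and Irf7 in Acacetin (87.9 to 177.3 CPM) lies below all 8 others.

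Deprivation and re-oxygenation changed 3 of the 9 transcripts past the test: Irf8 fell, and Irf1 and Irf9 rose. After acacetin Irf8 was still low, Irf1 was still above Control, and Irf7 fell below Control. Both calls of Irf8 and that of Irf7 held in 19 of 19 alternative analyses. The call of Irf9 in OGD was lost in 11 of 19. That of Irf1 was lost in 2 of 19 in OGD and in 12 of 19 in Acacetin. No member passed the test in Acacetin against OGD, where no gene of the whole table did. By edgeR's quasi-likelihood test, 28.8% of all tested genes were called in OGD against Control (16.2% higher, 12.6% lower) and 26.9% in Acacetin against Control (14% higher, 12.9% lower), so 3 of 9 members called in each is near those backgrounds. In Acacetin against OGD 0% of genes were called, 685 genes (5.17%) had an unadjusted p under 0.05, and the DESeq2 Wald test called 30 genes. All 3 comparisons share libraries with each other.

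IRF8 is the lineage factor of the group, and its transcript gave the largest difference from Control among the members, in size and for both treated groups. Irf8 (ENSMUSG00000041515.11, chromosome 8) stood at 150.0, 150.7, 127.9 and 160.0 CPM in Control 1 to 4. It stood at 92.5, 64.5, 69.0 and 66.4 CPM in OGD 1 to 4, and at 89.5, 65.4, 54.8 and 63.7 CPM in Acacetin 1 to 4. All 8 treated libraries were below all 4 Control libraries, and the OGD and Acacetin libraries overlapped. In RNA from a whole culture, fewer cells with a transcript and less of it per cell cannot be told apart. Group means were 147.1 ± 13.6, 73.1 ± 13.0 and 68.3 ± 14.8 CPM (SD, n = 4). The log2 fold change in OGD against Control was -1.01 ± 0.17 (SE, edgeR adjusted p = 0.000656), and in Acacetin against Control -1.11 ± 0.17 (edgeR adjusted p = 6e-04). Acacetin against OGD gave -0.10 ± 0.16 (edgeR adjusted p = 0.937). Both calls against Control held in 19 of 19 alternatives, from -1.16 to -0.89 for OGD and from -1.26 to -0.91 for Acacetin. Non-overlap of the groups is common in these data: the OGD libraries lay wholly below Control in 17% of tested genes, and the Acacetin libraries did so in 13.5%.

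Genes known to work with IRF8 or to mark the myeloid program moved both ways. The list held 22 genes, all tested. In OGD against Control 3 of them rose and 2 fell (16.2% and 12.6% of all tested genes). The median log2 fold change was -0.02 beside 0.03 for all tested genes. The falls were 1 without Control 1, without Control 2 or without OGD 2 and OGD 3, and 4 with 8 libraries. Csf1r, the receptor for the growth factor CSF1, rose from 66.3 ± 8.43 to 143.8 ± 11.96 CPM (log2 fold change 1.12 ± 0.14, edgeR adjusted p = 0.00017). Cebpa, a myeloid transcription factor, rose by 0.96 ± 0.22 (edgeR adjusted p = 0.00489), and Ly86, a cell surface partner of the Toll-like receptor relative CD180, by 1.02 ± 0.24 (edgeR adjusted p = 0.00542, lost at 0.0962 when OGD 2 and OGD 3 were left out). Spi1, which encodes PU.1, the DNA-binding partner of IRF8, averaged 281.9 ± 40.1 CPM in Control, 369.8 ± 32.97 in OGD and 311.3 ± 78.3 in Acacetin, with no call (edgeR adjusted p = 0.114 in OGD against Control). Against Control, Acacetin gave 1 rise (3 without Acacetin 1) and 2 falls in this list (14% and 12.9% of all tested genes). The smallest p-values were those of Runx1, a blood lineage factor, at -0.74 ± 0.13 (edgeR adjusted p = 0.00133) and Csf1r at 0.60 ± 0.14 (edgeR adjusted p = 0.00662). The call of Runx1 was lost on the FPKM scale with limma (highest adjusted p = 0.142).

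IRF1 is itself induced by interferon-gamma and by NF-kB, and it drives antigen presentation and guanylate-binding protein genes. Irf1 (ENSMUSG00000018899.18, chromosome 11) stood at 9.74, 11.03, 10.7 and 9.02 CPM in Control 1 to 4. It stood at 18.1, 16.5, 16.01 and 17.5 CPM in OGD 1 to 4, and at 15.1, 13.1, 11.9 and 13.9 CPM in Acacetin 1 to 4. The 3 groups did not overlap at all, with Control lowest, Acacetin in the middle and OGD highest. Irf1 rose by 0.75 ± 0.14 on the log2 scale in OGD against Control (edgeR adjusted p = 0.00136) and by 0.41 ± 0.14 in Acacetin against Control (edgeR adjusted p = 0.039). In Acacetin against OGD the value was -0.34 ± 0.14 (unadjusted p = 0.028, edgeR adjusted p = 0.829). The OGD libraries lay wholly above Control in 19% of tested genes, the Acacetin libraries wholly above Control in 12.1%, and the Acacetin libraries wholly below OGD in 1.88%. The first call was lost on the deposited FPKM values with limma (adjusted p = 0.0753 with 1 added), and the second was lost in 12 of 19 alternatives (highest adjusted p = 0.11), among them leaving out any 1 of the Control libraries, Acacetin 1, Acacetin 2 or Acacetin 4.

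Its counterpart Irf2 (ENSMUSG00000031627.10, chromosome 8) showed no such order. Irf2 stood at 11.7, 10.99, 8.05 and 11.7 CPM in Control, at 8.81, 7.09, 8.75 and 11.7 CPM in OGD, and at 7.46, 10.7, 9.54 and 11.1 CPM in Acacetin. All 3 groups overlapped, and the log2 fold change in OGD against Control was -0.22 ± 0.20 (edgeR adjusted p = 0.445). The ratio of Irf1 to Irf2 in FPKM was 1.83 ± 0.472 in Control, 3.59 ± 0.655 in OGD and 2.68 ± 0.711 in Acacetin (SD, n = 4). The OGD ratios (2.79 to 4.33) lay above all Control ratios (1.43 to 2.48), and the Acacetin ratios (2.29 to 3.75) overlapped both. This ratio and the others given below were chosen after the values were seen, and a ratio within a library does not depend on its depth.

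Genes known to be driven by interferon-gamma and IRF1 numbered 35, of which 23 were tested. In OGD against Control 5 rose and 1 fell (16.2% and 12.6% of all tested genes), with a median of 0.26. The leading genes were immunity-related GTPases, which attack membranes around intracellular microbes. Irgm1 rose from 3.64 ± 0.318 to 16.9 ± 4.41 CPM (log2 fold change 2.21 ± 0.30, edgeR adjusted p = 0.000222), Irgm2 by 1.83 ± 0.34 (edgeR adjusted p = 0.00145) and Igtp by 1.01 ± 0.20 (edgeR adjusted p = 0.00201). These GTPases are similar in sequence, and how reads were divided between them is uncertain. Against Control, Acacetin gave 3 rises and 5 falls (14% and 12.9% of all tested genes). These were 7 rises and 8 falls without Acacetin 1, and the falls were 3 without Control 2, Control 3, Acacetin 2, Acacetin 3 or Acacetin 4. In OGD the 5 rises were 3 without OGD 3 or without OGD 2 and OGD 3, the 1 fall ranged from 0 to 3 over the alternatives, and the median turned to -0.05 and -0.06 with limma on FPKM plus 1 and plus 0.1. Irgm1 was still higher at 1.65 ± 0.29 (edgeR adjusted p = 0.00143), while Tap1, which carries peptides to MHC class I, fell from 73.9 ± 4.73 to 39.1 ± 9.20 CPM (log2 fold change -0.92 ± 0.15, edgeR adjusted p = 0.000942). In Acacetin against OGD none of the 23 was called by edgeR, and 8 had an unadjusted p under 0.05 (5.17% of all tested genes). Values below 0 were found in 20 of them (median -0.36, beside -0.02 for all tested genes).

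IRF7, IRF3 and IRF5 are the factors that sensors activate, and IRF7 is also an interferon-stimulated gene, which lets it amplify the response. Irf7 (ENSMUSG00000025498.16, chromosome 7) stood at 183.2, 192.4, 234.2 and 212.4 CPM in Control 1 to 4. It stood at 226.8, 214.4, 228.6 and 234.2 CPM in OGD 1 to 4, and at 177.3, 115.9, 87.9 and 114.4 CPM in Acacetin 1 to 4. Control and OGD overlapped, while all 4 Acacetin libraries were below all 8 others, with Acacetin 1 close to Control. Irf7 fell by 0.73 ± 0.18 on the log2 scale in Acacetin against Control (edgeR adjusted p = 0.00903), and this call held in 19 of 19 alternatives, from -0.96 to -0.60. OGD against Control gave 0.14 ± 0.18 (edgeR adjusted p = 0.614).

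Against OGD, Irf7 in Acacetin was at -0.87 ± 0.18, with an unadjusted p of 0.000256 and an edgeR adjusted p of 0.242. This was the largest difference among the members in that comparison. DESeq2 called it (adjusted p = 0.00266), and so did edgeR when Acacetin 1 was left out (-1.09, edgeR adjusted p = 0.00547) and when both Acacetin 1 and Acacetin 3 were left out (-0.97, edgeR adjusted p = 0.0312). The remaining alternatives did not, with adjusted p-values up to 0.999. Acacetin 1 had the lowest length slope of all libraries and Acacetin 3 the highest, and their TMM factors were 0.852 and 1.322. On the deposited FPKM scale, which uses no TMM factor, the 4 Acacetin libraries ran from 25.9 to 34.8 FPKM, below the Control range of 39.3 to 52.2 FPKM but overlapping the OGD range of 34.3 to 64.9 FPKM. The part of library composition in the spread of Acacetin CPM values was not tested.

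Irf3 (ENSMUSG00000003184.16, chromosome 7) did not follow Irf7. The Control libraries were at 107.1, 78.6, 94.1 and 65.0 CPM, the OGD libraries at 97.2, 86.3, 86.8 and 64.7 CPM, and the Acacetin libraries at 124.9, 91.3, 60.3 and 73.7 CPM. All groups overlapped and differences lay within 0.06 ± 0.22 of 0 in size on the log2 scale, with edgeR adjusted p-values of 0.915, 0.972 and 0.951. Irf3 was also the member whose level went most with the length slope of a library (Pearson r = -0.843 over 12 libraries, a description). The ratio of Irf7 to Irf3 in FPKM was 2.26 ± 0.58 in Control, 2.52 ± 0.531 in OGD and 1.30 ± 0.108 in Acacetin. The Acacetin ratios (1.16 to 1.42) lay below all Control ratios (1.56 to 2.98) and all OGD ratios (2.13 to 3.30).

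Irf5 (ENSMUSG00000029771.13, chromosome 6), which drives inflammatory cytokine genes downstream of MyD88, stood at 104.2, 100.6, 98.3 and 87.8 CPM in Control, at 120.6, 111.4, 102.0 and 111.7 CPM in OGD, and at 103.9, 87.5, 65.7 and 76.4 CPM in Acacetin. Acacetin 2, 3 and 4 were below all OGD libraries, and each treated group overlapped Control. The log2 fold changes were 0.19 ± 0.14 in OGD against Control (edgeR adjusted p = 0.34), -0.42 ± 0.14 in Acacetin against OGD (unadjusted p = 0.00926, edgeR adjusted p = 0.811) and -0.23 ± 0.14 in Acacetin against Control (edgeR adjusted p = 0.23). Without Acacetin 1 the last value was -0.35 and was called (edgeR adjusted p = 0.0363).

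Upstream of these factors, the list of sensors, adaptors and kinases held 24 tested genes. In OGD against Control 7 rose and 1 fell (16.2% and 12.6% of all tested genes). The median was 0.31 beside 0.03 for all tested genes. Myd88, the adaptor of most Toll-like receptors, rose from 57.5 ± 12.8 to 173.1 ± 21.2 CPM (log2 fold change 1.59 ± 0.19, edgeR adjusted p = 0.000142). Sting1, the adaptor of cytosolic DNA sensing, rose by 0.91 ± 0.18 (edgeR adjusted p = 0.00219), and Tlr9, the endosomal receptor for unmethylated CpG DNA, by 1.33 ± 0.30 (edgeR adjusted p = 0.00451). Tbk1 and Ikbke, the kinases that phosphorylate IRF3 and IRF7, were not called, at 0.08 ± 0.39 (edgeR adjusted p = 0.907) and -0.07 ± 0.14 (edgeR adjusted p = 0.75). Against Control, Acacetin gave 5 rises and 1 fall (14% and 12.9% of all tested genes). The 7 rises in OGD were 3 without Control 2, without Control 3, without OGD 2 and OGD 3 or with limma on FPKM, and 4 without Control 4, OGD 1 or OGD 2, and the median was 0.12 with limma on FPKM plus 1. The 5 rises in Acacetin were 10 without Acacetin 1 and 3 without Control 3, without Acacetin 3 or with limma on FPKM. Myd88 was still higher, at 1.36 ± 0.19 (edgeR adjusted p = 0.000502), and Ticam1, the adaptor TRIF, was lower, at -0.63 ± 0.14 (edgeR adjusted p = 0.00552, lost on the FPKM scale with limma at up to 0.112).

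IRF9 and STAT2 work together in ISGF3. Irf9 (ENSMUSG00000002325.16, chromosome 14) stood at 34.8, 33.1, 40.9 and 28.7 CPM in Control 1 to 4. It stood at 44.2, 50.2, 49.1 and 42.7 CPM in OGD 1 to 4, and at 36.4, 33.3, 24.8 and 31.4 CPM in Acacetin 1 to 4. On the CPM scale the OGD libraries were all above the Control and the Acacetin libraries, which overlapped each other. On the FPKM scale OGD (5.16 to 8.28) overlapped both Control (4.93 to 6.36) and Acacetin (5.01 to 5.99). Irf9 rose by 0.44 ± 0.14 on the log2 scale in OGD against Control (edgeR adjusted p = 0.0352). The value in Acacetin against OGD was -0.56 ± 0.14 (unadjusted p = 0.00157, edgeR adjusted p = 0.521), and in Acacetin against Control -0.13 ± 0.14 (edgeR adjusted p = 0.532). The rise was lost in 11 of 19 alternatives (0.25 to 0.53, adjusted p from 0.0159 to 0.266). Among them were leaving out OGD 2 and OGD 3 (edgeR adjusted p = 0.181), removing the length trend (0.0675), and leaving out Control 1, Control 2, Control 4, OGD 1, OGD 2 or OGD 3 alone (0.0516 to 0.094).

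Stat2 (ENSMUSG00000040033.17, chromosome 10) was the least abundant member, with 49 to 222 reads per library, so its values carry the most counting error. It stood at 4.46, 6.22, 5.99 and 5.81 CPM in Control, at 5.81, 3.497, 3.83 and 7.21 CPM in OGD, and at 2.47, 3.03, 4.89 and 5.98 CPM in Acacetin. All groups overlapped. The log2 fold change was -0.14 ± 0.31 in OGD against Control (edgeR adjusted p = 0.789) and -0.45 ± 0.31 in Acacetin against Control (edgeR adjusted p = 0.282). A change of Stat2 of the size seen for Irf9 was not detectable with errors this wide.

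Type I interferon-stimulated genes that ISGF3 drives made the largest list, with 41 tested genes. In OGD against Control 14 rose and 1 fell (16.2% and 12.6% of all tested genes), and the median was 0.64. Oas2, which makes the second messenger that activates RNase L, rose from 8.34 ± 1.07 to 22.9 ± 5.94 CPM (log2 fold change 1.46 ± 0.18, edgeR adjusted p = 0.000174). Rtp4, a chaperone that interferon induces, rose from 11.01 ± 3.03 to 28.7 ± 5.58 CPM (edgeR adjusted p = 0.000347). Isg15, the ubiquitin-like modifier, rose by 1.29 ± 0.22 (edgeR adjusted p = 0.000931). The count of rises was 8 when OGD 2 and OGD 3 were left out, 9 without Control 2, and 8 of 29 tested on the FPKM scale with limma. The median was 0.175 and 0.301 with limma on FPKM plus 1 and plus 0.1, and 0.478 with a mean of at least 1 CPM.

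In Acacetin against OGD edgeR called 0 of the 41 interferon-stimulated genes, and 18 had an unadjusted p under 0.05 (5.17% of all tested genes). Below 0 lay 29 of them, with a median of -0.42 beside -0.02 for all tested genes. The median ran from -0.584 without Acacetin 3 to -0.283 with limma on FPKM plus 1. DESeq2 called 6 of the list genes lower. The smallest p-values were those of Isg15 (-1.31 ± 0.22, edgeR adjusted p = 0.128), Isg20, an RNA exonuclease (-1.10 ± 0.19, edgeR adjusted p = 0.136), and Xaf1, an apoptosis-related gene (-0.96 ± 0.18, edgeR adjusted p = 0.165). Isg15 averaged 42.3 ± 11.5 CPM in Control, 103.6 ± 15.5 in OGD and 41.7 ± 13.3 in Acacetin. Isg20 averaged 29.8 ± 3.72, 31.5 ± 4.51 and 14.7 ± 4.35 CPM. In Acacetin against Control, Isg15 was at -0.02 ± 0.22 (edgeR adjusted p = 0.948), and Isg20 fell by 1.02 ± 0.19 (edgeR adjusted p = 0.00198). Without Acacetin 1 edgeR called both Isg15 and Isg20, and 4 genes of the list in all.

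In Acacetin against Control 4 of the 41 rose and 5 fell (14% and 12.9% of all tested genes). The median was 0.15, but 0.259 without Acacetin 1 and -0.179 without Acacetin 3. Dhx58, which encodes the RNA sensor LGP2, fell from 30.7 ± 2.59 to 14.3 ± 3.56 CPM (log2 fold change -1.10 ± 0.16, edgeR adjusted p = 0.000592). Oas2 was still higher than in Control, at 1.18 ± 0.18 (edgeR adjusted p = 0.00068). Leaving out Control 1 or Control 2 gave 2 rises, leaving out Acacetin 1 gave 11 rises and 10 falls, and leaving out Acacetin 1 and Acacetin 3 gave 10 falls.

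STAT3 carries the signals of IL-6, IL-10, LIF and oncostatin M. Stat3 (ENSMUSG00000004040.17, chromosome 11) stood at 32.3, 34.2, 33.2 and 35.3 CPM in Control 1 to 4. It stood at 40.1, 32.9, 40.6 and 56.5 CPM in OGD 1 to 4, and at 29.7, 36.2, 36.0 and 44.2 CPM in Acacetin 1 to 4. Control was narrow, OGD 4 was the highest library, and all groups overlapped. The log2 fold change was 0.34 ± 0.16 in OGD against Control (edgeR adjusted p = 0.144), -0.22 ± 0.16 in Acacetin against OGD (edgeR adjusted p = 0.837) and 0.12 ± 0.16 in Acacetin against Control (edgeR adjusted p = 0.622). Stat3 lies at the 90.4th percentile of gene length, and OGD 4 had a length slope of 0.146, the highest outside the Acacetin group. With the length trend removed, Acacetin against Control was at -0.011 (edgeR adjusted p = 0.954). OGD against Control stayed above 0 and without a call in 19 of 19 alternatives (0.136 to 0.53). Beyond this the part of gene length in its level was not tested.

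Known STAT3 target genes moved both ways. Of 26 tested, 6 rose and 5 fell in OGD against Control (16.2% and 12.6% of all tested genes), with a median of 0.07. The rises were 3 without Control 2 or without OGD 2 and OGD 3 and 2 with limma on FPKM, the falls were 3 without Control 1, without OGD 2 or without OGD 2 and OGD 3, and the median ran from -0.08 to 0.24 over the alternatives. Lcn2, an iron-scavenging acute-phase protein, fell from 391.0 ± 22.1 to 107.1 ± 21.0 CPM (log2 fold change -1.87 ± 0.21, edgeR adjusted p = 0.000102), and the kinase gene Pim1 fell by 1.02 ± 0.19 (edgeR adjusted p = 0.0013). Icam1, an adhesion molecule, rose by 0.71 ± 0.12 (edgeR adjusted p = 0.000809). Against Control, Acacetin gave 3 rises and 7 falls (14% and 12.9% of all tested genes). The falls were led by Lcn2 at -2.25 ± 0.22 (edgeR adjusted p = 7.27e-05) and Pim1 at -0.998 ± 0.19 (edgeR adjusted p = 0.00197). Those rises were 1 without Control 2 or Acacetin 2 and 5 without Acacetin 3, and the falls were 4 without Control 1, without Control 2 or with limma on FPKM.

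**Figure D3:**
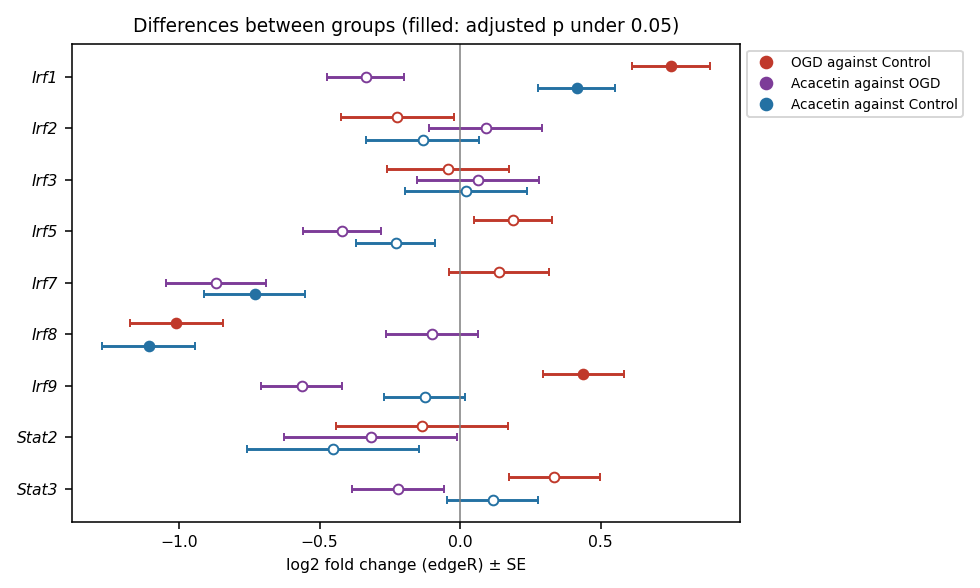
Log2 fold change with its SE (x axis) of each member (y axis) from the edgeR fit, for OGD against Control (red), Acacetin against OGD (purple) and Acacetin against Control (blue), with filled points for an adjusted p under 0.05. Irf8 is near -1 in both comparisons with Control, and no point is filled in Acacetin against OGD.

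Over the 9 members, 5 log2 fold changes were above 0 and 4 below in OGD against Control (median 0.14), and the groups did not overlap in 3 members (36% of all tested genes). In Acacetin against OGD 7 lay below 0 and 2 above (median -0.32), and 4 had an unadjusted p under 0.05 (5.17% of all tested genes). On the CPM scale Irf1, Irf7 and Irf9 did not overlap, all lower in Acacetin (2.35% of all tested genes did not overlap in either direction). On the FPKM scale each of these members overlapped between Acacetin and OGD. In Acacetin against Control 6 lay below 0 and 3 above (median -0.13), with 3 members not overlapping (25.7% of all tested genes). Acacetin 1 was the highest Acacetin library for Irf1, Irf3, Irf5, Irf7, Irf8 and Irf9 and the lowest for Irf2, Stat2 and Stat3.

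Of the 5 other family genes tested, 1 rose and 2 fell in OGD against Control (16.2% and 12.6% of all tested genes). In Acacetin against Control 3 fell (12.9% of all tested genes). Without Control 2 none of them rose in OGD, without OGD 2 and OGD 3 none fell there, and without Control 4, 1 fell in each comparison. Irf4, whose protein like IRF8 binds DNA together with PU.1, fell from 4.62 ± 0.622 CPM in Control to 2.10 ± 0.324 in OGD (log2 fold change -1.13 ± 0.25, edgeR adjusted p = 0.00451, lost at 0.0636 without OGD 2 and OGD 3). It was at 1.21 ± 0.362 CPM in Acacetin (-1.93 ± 0.26 against Control, edgeR adjusted p = 0.000372). Stat5b, a mediator of growth factor signals, was at -0.43 ± 0.15 in OGD (edgeR adjusted p = 0.0412, lost in 11 of 19 alternatives) and fell by 0.54 ± 0.15 in Acacetin (edgeR adjusted p = 0.0152, lost without Control 4 and on the FPKM scale with limma). Its relative Stat5a fell in Acacetin against Control (-0.60 ± 0.17, edgeR adjusted p = 0.0186). Stat6, the mediator of IL-4 signals, rose from 47.6 ± 2.20 to 61.8 ± 4.37 CPM in OGD (0.38 ± 0.10, edgeR adjusted p = 0.0161, lost in 4 of 19 alternatives). Stat4 was under the filter on low counts.

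Among the ligands, Ifnb1 averaged 0.204, 0.312 and 0.0781 CPM in Control, OGD and Acacetin, too few reads to test. None of the 6 tested interferon and STAT3-activating cytokine genes was called in the edgeR fit of all libraries. At an unadjusted p under 0.05 were 0, 1 and 1 of them in OGD against Control, Acacetin against OGD and Acacetin against Control. Of all tested genes 39.3%, 5.17% and 40.1% were. In Acacetin against Control edgeR called 2 lower without Acacetin 1, without Acacetin 1 and Acacetin 3 or with the replicate number as a block, and 1 lower without Control 2. In OGD against Control it called 1 lower without OGD 1, with the block or with 8 libraries, as did limma on FPKM. Osm, which encodes oncostatin M, was at 50.3 ± 3.501, 59.1 ± 10.5 and 54.6 ± 15.8 CPM.

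Receptors and JAK kinases gave 2 rises and 5 falls among 16 tested in OGD against Control (16.2% and 12.6% of all tested genes) and 1 rise and 5 falls in Acacetin against Control (14% and 12.9%). The median in OGD was -0.29, but 0.07 without OGD 2 and OGD 3, where 1 rose and 3 fell, and -0.01 without OGD 2. Leaving out any 1 Control library, OGD 2, OGD 3 or OGD 4 gave 1 rise in OGD, and limma on FPKM gave 0. In Acacetin there were 2 rises without Acacetin 1, and limma on FPKM plus 1 gave 0 rises and 3 falls and turned the median from -0.04 to 0.06. Jak3, the kinase of the common gamma chain receptors, fell from 45.8 ± 6.78 to 20.4 ± 4.18 CPM (log2 fold change -1.16 ± 0.20, edgeR adjusted p = 0.000933) and stood at 20.2 ± 5.85 CPM in Acacetin (-1.18 ± 0.20, edgeR adjusted p = 0.00109). Tyk2, the kinase on the type I interferon receptor, fell from 21.4 ± 2.34 to 10.7 ± 2.19 CPM in OGD (edgeR adjusted p = 0.00128). Ifnar2, a chain of that receptor, fell by 0.47 ± 0.13 in OGD (edgeR adjusted p = 0.0132). Csf3r, the receptor for G-CSF, fell by 1.08 ± 0.24 in OGD (edgeR adjusted p = 0.00407, lost at 0.067 without OGD 2 and OGD 3) and by 1.59 ± 0.24 in Acacetin against Control (edgeR adjusted p = 0.000622). Il6ra, the IL-6 receptor, rose by 1.13 ± 0.25 in OGD (edgeR adjusted p = 0.00446) and Il10ra fell by 1.11 ± 0.26 (edgeR adjusted p = 0.0054).

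Inhibitors of these pathways gave 7 rises and 1 fall among 25 tested in OGD against Control (16.2% and 12.6% of all tested genes). In Acacetin against Control they gave 4 rises and 2 falls (14% and 12.9%). Acacetin gave 8 rises and 5 falls without Acacetin 1, 2 rises without Control 2, Control 3, Control 4 or Acacetin 2, and 1 fall without Control 1, Control 2, Acacetin 3 or Acacetin 4. In OGD the rises were 4 with limma on FPKM, and the median of 0.19 was -0.08 without OGD 4. Usp18, which removes ISG15 and blocks the interferon receptor, rose from 73.1 ± 17.7 to 169.2 ± 29.5 CPM in OGD (log2 fold change 1.21 ± 0.19, edgeR adjusted p = 0.000491) and averaged 85.6 ± 16.1 CPM in Acacetin. Socs1, which blocks JAK kinases, rose from 4.53 ± 1.12 to 11.6 ± 1.67 CPM (edgeR adjusted p = 0.00121) and averaged 6.98 ± 2.13 CPM in Acacetin. Irf2bp2, a co-repressor that binds IRF2, rose by 0.54 ± 0.11 in OGD (edgeR adjusted p = 0.00244) and by 0.49 ± 0.11 in Acacetin against Control (edgeR adjusted p = 0.00531), both lost on the FPKM scale with limma (highest adjusted p = 0.241 and 0.0586). Usp18 stands also in the list of interferon-stimulated genes, and the lists share 5 genes in this way (Usp18, Il6ra, Socs3, Cebpb and Osmr).

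**Figure D4:**
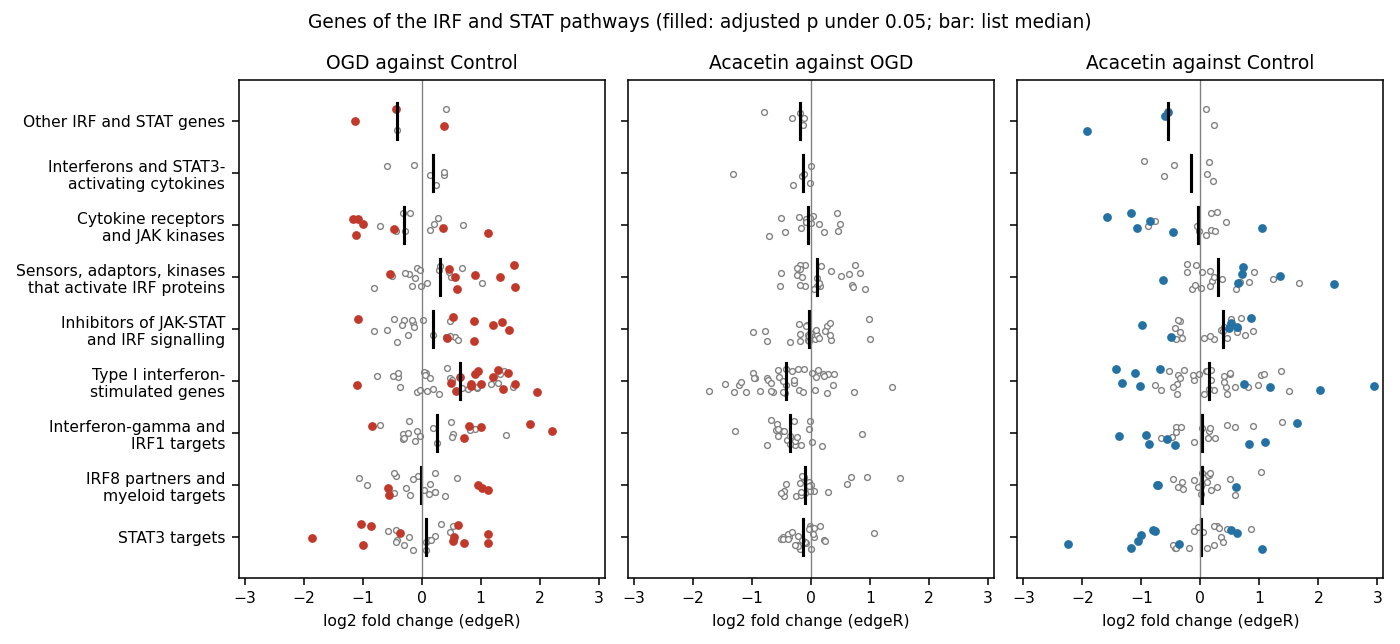
Log2 fold changes (x axis) of the tested genes of 9 lists around the IRF and STAT factors, 1 point per gene, in the 3 comparisons, with filled points for an adjusted p under 0.05 and a black bar for the list median. Interferon-stimulated genes lie mostly to the right in OGD against Control (median 0.64) and mostly to the left in Acacetin against OGD (median -0.42), where no point is filled.

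As shares of the summed FPKM of the 9 genes, which do not depend on depth, the make-up of the family differed between groups. Irf8 made up 14.1 ± 1.88% of the sum in Control (11.5 to 16%), 6.77 ± 0.889% in OGD (6.18 to 8.09%) and 8.70 ± 0.364% in Acacetin (8.28 to 9.17%). On this scale Acacetin was above OGD in all libraries, unlike on the CPM scale, where both overlapped. The share of Irf7 was 36.6 ± 3.66% in Control, 39.3 ± 1.95% in OGD (37.1 to 41.4%) and 29.1 ± 2.14% in Acacetin (27.4 to 32%), and that of Irf3 was 16.8 ± 3.04%, 15.9 ± 2.28% and 22.4 ± 2.09%. These shares sum to 100% and so do not move independently, and they were not tested. The share of Irf1 was 1.71 ± 0.146% in Control, 2.81 ± 0.104% in OGD and 3.12 ± 0.436% in Acacetin. Control did not overlap the treated groups, while OGD and Acacetin overlapped, unlike on the CPM scale. Irf9 was at 4.27 ± 0.443%, 5.68 ± 0.596% and 5.30 ± 0.474%, where OGD and Acacetin overlapped. The ratio of Irf8 to Irf5 was 0.624 ± 0.0908 in Control (0.536 to 0.750), 0.269 ± 0.0355 in OGD (0.238 to 0.316) and 0.337 ± 0.0205 in Acacetin (0.307 to 0.355).

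**Figure D5:**
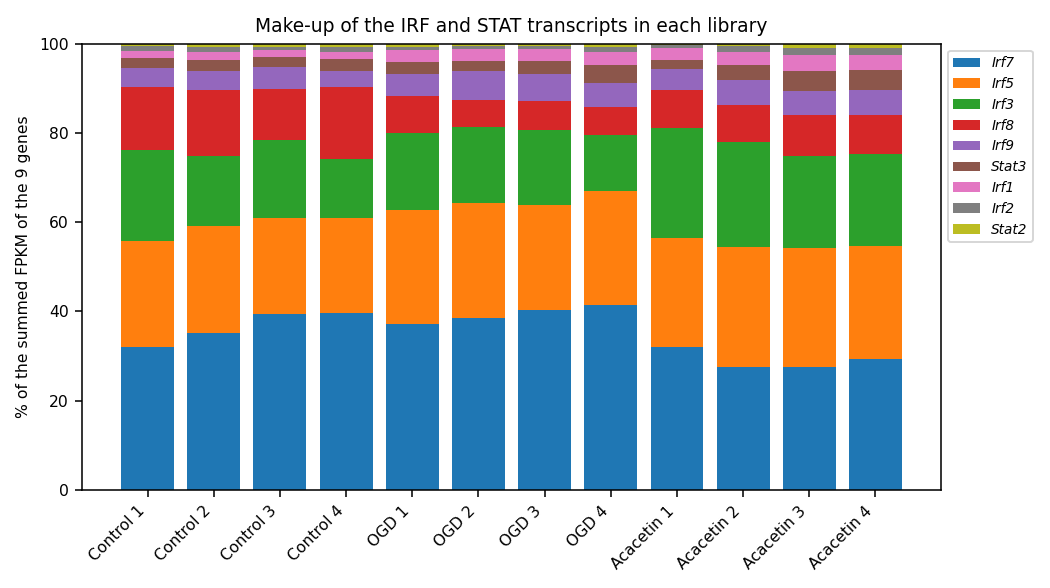
Share of each member in the summed FPKM of the 9 genes (y axis, percent, stacked to 100) in each of the 12 libraries (x axis). Irf7 (blue) takes 27.4 to 32% of the Acacetin bars against 37.1 to 41.4% of the OGD bars, and Irf8 (red) is widest in Control (11.5 to 16%).

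Across the 12 libraries some members went together. Pearson's r of log2 CPM was 0.859 for Irf5 and Irf7, 0.82 for Irf5 and Irf9, and 0.733 for Irf7 and Irf9, while Irf1 and Irf8 were at -0.692. These are descriptions, since libraries of a group share a treatment and the members share library composition. The genes most like Irf7 among 7887 compared were Isg20 (r = 0.953), the surface protein gene Ly6a (0.938) and the iron regulator Hfe (0.931). The closest to Irf9 were the DNA exonuclease gene Trex1 (0.933), Isg15 (0.932) and Qpctl (0.931). Irf8 was nearest to Phldb3 (0.992), Hpcal1 (0.99) and Edem2 (0.99), and Irf1 to Sash3 (0.957) and Ppp1r15a (0.954). Irf5 was nearest to Dgat2 (0.953), the TNF receptor gene Tnfrsf1a (0.939) and the peptide-loading gene Tapbp (0.934).

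Members with no called change had close partners too. Irf3 went with Tssc4 (0.985), Det1 (0.975) and Mus81 (0.975), and Irf2 with Ube4b (0.956), Fyn (0.942) and Uhrf1bp1 (0.936). Stat3 went with Mcm3ap (0.918), Pip4k2b (0.905) and Eif4g1 (0.901), and Stat2 with Tspyl1 (0.923), Slfn4 (0.86) and Rin2 (0.857). Several of these members also went with the length slope of a library (r = 0.578 for Stat3, 0.576 for Irf2 and 0.503 for Stat2). So did Irf5 (-0.682), Irf9 (-0.597) and Irf7 (-0.591), the members that went together, while Irf8 was at -0.392 and Irf1 at -0.096. The part of the length slope in these correlations was not tested.

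Some members overlap other annotated genes, and the strand setting of the read counting is not given in the sources used here. In the GENCODE annotation of GRCm38, Irf8 shares 20337 bases on the same strand with the gene model Gm20388. The symbol Gm20388 is not in the deposited count table. How reads in the shared bases were assigned is not given in the sources used here. Irf1 overlaps Gm17334 and Irf2 overlaps Gm45479 on the opposite strand, and these averaged 0.137 and 0.00458 CPM. Irf9 overlaps Rnf31 on the same strand by 123 bases. Rnf31 moved the other way, from 26.3 ± 2.40 CPM in Control to 15.8 ± 2.61 in OGD (log2 fold change -0.74 ± 0.17, edgeR adjusted p = 0.00474). Irf3, Irf5, Irf7 and Stat3 overlap Bcl2l12, Tnpo3, Phrf1 and Stat5a on the opposite strand. Bcl2l12, Tnpo3 and Phrf1 averaged 8.38, 10.6 and 28.1 CPM over all libraries, less than their neighbours among the members, and none of the 3 was called by edgeR in any comparison.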

How the data were processed

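Messenger RNA libraries of BV2 cells were stranded and read in pairs, per the labels' protocols. Tools listed without roles in the submitters' processing notes are bcl2fastq, HISAT2 and DESeq2, with build GRCm39. Not given in the sources used here are the counter, the annotation and the strand setting. The authors deposited raw counts per gene (whole numbers) and FPKM values, whose ratio to the counts was checked and used 1 length per gene and 1 depth per library. Chromosomes are from the deposited table. Depth is the summed count per library and bears on counting error only. No pair of libraries was identical.

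From the counts, edgeR 4.0.16 (R 4.3.3) fitted 1 quasi-likelihood model to all 12 libraries, with TMM scaling and filterByExpr (minimum count 10, minimum total 15). Tests were two-sided with Benjamini-Hochberg adjustment over 13249 genes in each of 3 comparisons, and the threshold for a call was an adjusted p of 0.05. The fit was tested on simulated data. CPM used TMM library sizes. Likeness was Pearson's r of log2 CPM (prior count 2) among genes that averaged 5 CPM or more.

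The 9 members and the 9 lists (227 entries, 222 symbols, 184 of them tested) were chosen with earlier results of these data known. Named from each list were the 3 called genes with the smallest p in OGD against Control and the 2 in Acacetin against Control, from the interferon-stimulated list also the 3 with the smallest p in Acacetin against OGD, and the other family members and ligands. Some genes that this rule or the likeness measure named are not reported here. Ifnar2, Il6ra, Il10ra, Tbk1, Ikbke, Spi1, Isg15 in OGD against Control and the overlapping genes were named after their values were seen. Alternatives were DESeq2 1.42.0, its size factors in edgeR, no filter, a mean of at least 1 CPM, 8 libraries, a replicate block, thinned counts, a length trend removed (lowess, span 0.5), limma 3.58.1 on log2 of FPKM plus 1 or plus 0.1 (mean FPKM of at least 0.5), and libraries left out. The length used came from the ratio of count to FPKM. Promoter sequences and GENCODE gene overlaps are of GRCm38, and no coordinates were carried between builds.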

Additional observations from a re-analysis of the deposited data

Results flagged for a closer look

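Among 27 groups of 4 libraries (9 members in 3 groups), 1 had a library far from the rest: Irf8 in OGD 1 was at 92.46 CPM, while the other OGD libraries lay between 64.5 and 68.97 CPM. The gap took 0.84 of the range of the group, above the limit of 0.829 for 4 samples, which about 1 in 20 groups pass by chance. Without this library Irf8 was still called lower in OGD against Control.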

How the results depend on the processing

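Of 27 results (9 members in 3 comparisons) under 522 alternatives, 467 kept their direction and side of the threshold, 25 lost a call, 4 gained one and 26 changed sign. None of the 26 belonged to a called result. With the list genes named by rule added, 69 results had 1319 alternatives, of which 1223 kept direction and side, 54 lost a call, 16 gained one and 26 changed sign. Whether the replicate numbers pair the libraries is not settled. Correlations of same-numbered deviations ran from -0.291 to 0.506. Libraries numbered 4 were closest to their own number in all 3 comparisons (0.506, 0.38 and 0.402), those numbered 3 in none, and the others in some. With the replicate number as a block 4572, 2 and 4279 genes were called in OGD against Control, Acacetin against OGD and Acacetin against Control, and 3, 0 and 3 members. The cause of the changes below was not tested unless fewer samples or genes entered.

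In OGD against Control the 3 members called became 1 with limma on FPKM plus 1 or plus 0.1, and the 3813 genes called became 2010 without OGD 2 and OGD 3. Leaving out 1 library gave 2 to 3 members and 2798 to 3501 genes. In Acacetin against OGD the 0 genes called became 8 with no filter, 2 with the block, 4 with the length trend removed, 3 with thinned counts, 1 with 8 libraries, 2 with limma on FPKM plus 1, 30 with DESeq2 and 4 without Acacetin 1 and Acacetin 3. DESeq2 and the last of these each called 1 member. Leaving out 1 library gave 0 to 9 genes and 0 to 1 members, the highest without Acacetin 1. In Acacetin against Control the 3559 genes became 2325 and 2265 with limma on FPKM plus 1 and plus 0.1, and leaving out 1 library gave 2373 to 5818 genes (the highest without Acacetin 1) and 2 to 3 members. The share of higher calls in OGD against Control, 56.3%, was 34.6% and 35.6% with limma on FPKM, and that in Acacetin against Control, 52%, was 63.5% with 0.1 added.

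Among interferon-stimulated genes, the 14 rises in OGD against Control were 8 with limma on FPKM or without OGD 2 and OGD 3 and 9 without Control 2, and the 1 fall was 2 to 4 in some alternatives. The 0 falls in Acacetin against OGD were 6 with DESeq2, 3 with no filter, 4 without Acacetin 1, and 2 with the length trend removed or without Acacetin 1 and Acacetin 3. The 4 rises in Acacetin against Control were 2 to 11, and the 5 falls up to 10. Calls in the other lists were recomputed under the same alternatives. The report gives, beside each list, some of the alternatives that moved its counts by over 1.5 times. Others are not given, so a count with no alternative beside it can also have moved.

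Log2 values that changed sign with limma on FPKM plus 1 (plus 0.1) were Irf7 in OGD against Control, -0.0098 (-0.011), Irf8 and Stat3 in Acacetin against OGD, 0.161 (0.185) and 0.056 (0.082), and Irf2 and Irf9 in Acacetin against Control, 0.011 (0.0069) and 0.0093 (0.011). Removing the length trend put Stat3 at -0.011 in Acacetin against Control. Without OGD 2 and OGD 3, Stat2 was 0.222 in OGD against Control and Irf2 -0.033 in Acacetin against OGD. Without Acacetin 1 and Acacetin 3, Irf3 was -0.018 against OGD and -0.06 against Control, and Irf2 0.033 against Control. Leaving out 1 library, values ranged across 0 for Irf3 (OGD against Control -0.181 to 0.078, Acacetin against OGD -0.157 to 0.207, Acacetin against Control -0.199 to 0.165), for Stat2 in OGD against Control (-0.351 to 0.009), and for Irf2 (-0.01 to 0.238) and Irf8 (-0.255 to 0.037) in Acacetin against OGD. Stat2 had the fewest reads among the members and so the most counting error, whose part in its spread was not tested. Ifnb1 and Stat4 were too low to test.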
